A study of Mus musculus with 5 samples.

Results

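Interferon-induced genes are the genes that cells switch on when type I or type II interferon binds its receptor. They were taken here as 41 named mouse genes, apart from the interferon regulatory factors and the MHC genes, and each of the 41 matched exactly 1 of the 31626 gene rows of the files by its gene name. The rule names genes known for this response and uses no measured value, but the members were chosen with earlier results of these data known. Counts and shares below thus describe the chosen list alone.

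RNA of MN1-transformed mouse common myeloid progenitors was sequenced in 5 libraries, and FPKM (fragments scaled by gene length and by the fragments mapped in the library) were deposited for each. The Mll1 knockout group (n = 2) was MLL1 -/- cells taken at day 7 after transduction with cre, and the control group (n = 3) was MLL1 flox/flox cells at day 7 after transduction with a control. All cells were of C57Bl/6 strain, carried the MSCV-MN1-IRES-GFP vector, which expresses the leukaemia gene MN1 with the marker GFP, and grew in M3234 medium with FBS, IL3, IL6 and SCF. The labels name no added interferon and do not say whether replicates were separate mice or cultures, and p-values here thus describe no more than the scatter among these libraries, part of which may be technical. Cre exposure and loss of Mll1 cannot be told apart, since no library of cre-treated cells with wild type Mll1 was analysed here.

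In background, interferon receptors signal through the kinases JAK1, JAK2 and TYK2 to transcription factors, STAT2 and IRF9 among them. The interferon-stimulated response element (ISRE) and the gamma-activated site (GAS) are the DNA elements through which many of the induced genes respond. Blood stem and progenitor cells are known to keep some interferon-induced genes on without added interferon, the IFITM genes among them. MLL1 (current symbol KMT2A) is a histone H3 lysine methyltransferase, and MN1 is a transcriptional cofactor.

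The libraries set some limits on the values. Mll1 itself stood at 6.22 and 5.32 FPKM in knockout libraries, against 9.67, 7.28 and 7.19 FPKM in controls, a log2 change of -0.41 (limma adjusted p = 0.158). Exact permutation of the libraries, two-sided, had p = 0.1, and no lower p exists with 10 splits. The labels do not name the floxed exons, so FPKM over the whole gene may include exons that the deletion leaves in place. How many reads lie behind each library is not known. Steps between low values put the libraries at similar depth, a single read being worth 0.979 to 1.02 times as much FPKM as in control replicate 1. Control replicate 1 nevertheless listed fewer genes at 0 (11672) than the other libraries (12695 to 13061). Control replicate 1 differed from the mean of the other controls by a median of 0.22 on the log2 scale over the genes kept, against 0.11 between control replicates 2 and 3 and 0.073 between the knockouts. All 6 progenitor markers passed the filter, of which Cd34 was called lower (log2 change -1.54) and Mpo and Gata2 higher (1.46 and 0.38). Summed over 10 neutrophil markers, the level was 20691 and 22426 FPKM in the knockouts, against 792 to 6413 FPKM in controls, the highest in control replicate 1. Most of it was S100a8 and S100a9 (11794 and 10186 FPKM in knockout replicate 1), neither called. Of the 10, 1 (Lcn2) was called higher and 5 lay above all controls, while Ltf, Camp and Ngp were highest in control replicate 1. Beside the marker counts here, 3.82% of all genes kept were called higher and 5.97% lower, and 22.9% lay above all controls. Over 8 monocyte and macrophage markers the sum was 325 to 358 FPKM in the knockouts, against 87.1 to 356 FPKM in controls, with Ccr2 called lower. Of 6 erythroid markers, Alas2, Klf1 and Gata1 were called higher (log2 changes 1.57, 0.76 and 0.56), the sum being 38.8 to 40.9 FPKM in the knockouts, against 21.8 to 47.5 FPKM in controls. The 6 dendritic cell markers matched by gene name summed to 1.78 to 1.95 FPKM in the knockouts and 2.06 to 3.16 FPKM in controls. Among them, Siglech was listed at 0 in every library. H2-Ab1, a marker of that list not matched by name and left out of the sum, had 0.637 and 0.842 FPKM in the knockouts. Its controls stood at 2.24, 6.77 and 4.55 FPKM, and it was not called (limma adjusted p = 0.0658). The 9 lymphoid markers summed to 0.33 to 0.464 FPKM in the knockouts and 0.573 to 0.858 FPKM in controls. Some of these maturation and lineage markers moved with the groups, while others, and the erythroid sums, overlapped between them. The part of these markers in the results below was not tested. In these bulk samples, fewer cells of a type and less RNA per cell cannot be told apart.

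The genes of the list spanned a wide range of levels. Of the 41 genes, 4 averaged at least 100 FPKM over the 5 libraries, 10 averaged 10 to 100 FPKM, 11 averaged 1 to 10 FPKM and 16 averaged under 1 FPKM. Ifitm1, Ifitm2, Ifitm3 and Psmb8 were the 4 at the top. Interferon genes themselves were near 0: of 17 ligand genes found in the files, 10 were listed at 0 in all 5 libraries and none exceeded 0.137 FPKM in any. A gene was tested if 2 or more libraries held 1 FPKM or more, which was so for 25 of the 41. The other 16 are given by their values alone.

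**Figure D1:**
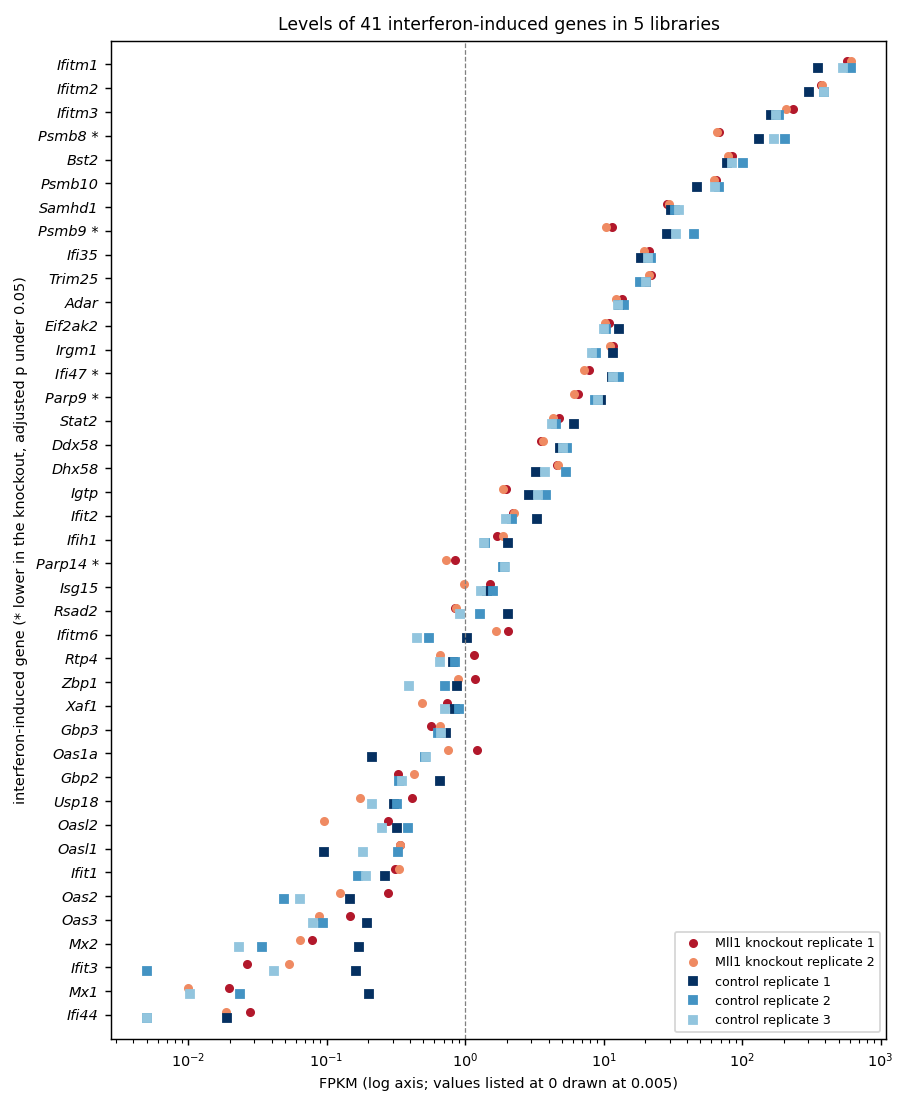
FPKM on a log axis of the 41 interferon-induced genes, sorted by their mean, with circles for the 2 Mll1 knockout libraries and squares for the 3 controls; the dashed line marks 1 FPKM, values listed at 0 are drawn at the left end, and * marks genes lower in the knockout. Levels run from under 0.05 FPKM for Ifi44 to 568 and 608 FPKM in the knockouts for Ifitm1, and the circles of Psmb8 and Psmb9 lie clear of their squares.

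In the Mll1 knockouts a small set of these genes was lower and none had a called rise. In limma on log2(FPKM + 1), with Benjamini-Hochberg adjustment over all 11780 genes kept, 5 of the 25 genes tested fell at an adjusted p under 0.05 and 0 rose. Over all genes kept, 5.97% fell and 3.82% rose, beside 20% and 0% of the 25. The 5 were the immunoproteasome genes Psmb9 and Psmb8, the ADP-ribosyltransferase genes Parp14 and Parp9 and the immunity-related GTPase gene Ifi47. Of these, Parp14 passed the filter through the controls alone, with both knockouts under 1 FPKM. The median log2 change over the 25 was -0.092, against -0.028 over all genes kept, and changes ran from -1.60 to 0.78. Both knockout values lay below all controls in 9 of the 25 genes and above them in 3, against 29.4% and 22.9% of all genes kept. Parp14 and Rsad2, among the 9, passed the filter through the controls alone. Over all 41 genes, 9 lay below and 7 above, beside 4962 and 3579 of the 22571 genes with any value above 0. The other 9039 of 31610 genes were at 0 in every library and could enter neither count, and none of the 41 was among them. The 7 include Ifit1, Oas1a, Oasl1 and Zbp1, which were not tested. At an unadjusted p under 0.05 limma had 9 of the 25 genes, beside 3511 of all 11780.

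The calls, more than the size of the changes, varied with the libraries used. Without control replicate 1, 7 genes fell (the 5, Ddx58 and Igtp) and 2 rose (Ifitm6 and Irgm1), against 18.8% and 12.4% of all genes. Without control replicate 2 only Psmb9 was called, and without control replicate 3, knockout replicate 1 or knockout replicate 2 none of the 25 was called by limma, with 9, 6 and 7 genes at an unadjusted p under 0.05, beside 3107 of 11629, 1617 of 11590 and 1595 of 11617 genes in all. With a single knockout library the spread comes from the controls alone. Over these 5 omissions the log2 changes ran from -1.74 to -1.42 for Psmb9, -1.47 to -1.16 for Psmb8, -0.75 to -0.65 for Parp14, -0.66 to -0.56 for Ifi47 and -0.51 to -0.44 for Parp9.

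**Figure D2:**
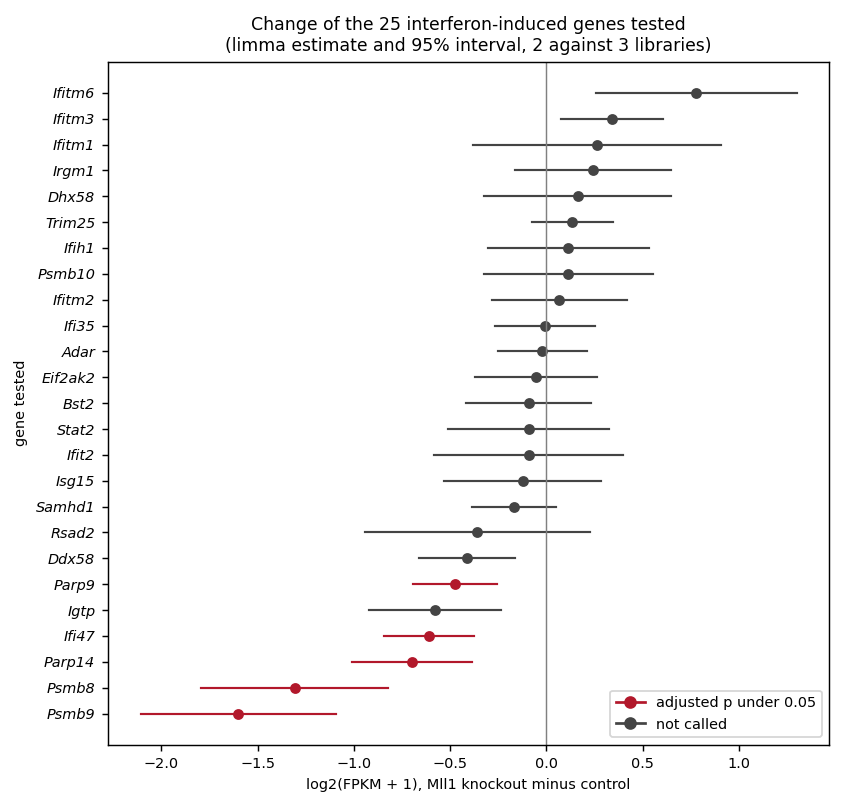
Change of the 25 interferon-induced genes tested, as log2(FPKM + 1) in Mll1 knockout minus control, with points for the limma estimate and lines for its 95% interval (2 against 3 libraries). The 5 genes called lower and Igtp, not called, lie at the bottom, the called ones from -0.48 for Parp9 to -1.60 for Psmb9, and the intervals of most other genes include 0.

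The largest falls were in the immunoproteasome. Psmb8, Psmb9 and Psmb10 encode the catalytic subunits LMP7, LMP2 and MECL-1, which interferon-treated cells build into the proteasome in place of the constitutive subunits encoded by Psmb5, Psmb6 and Psmb7, and which shape the peptides shown on MHC class I. Psmb9 had 11.5 and 10.4 FPKM in the knockouts, against 28.9, 45.1 and 33.1 FPKM in controls. All knockout values of Psmb9 lay below all controls, with a mean of 10.9 ± 0.783 FPKM (SD, n = 2) against 35.7 ± 8.4 FPKM (SD, n = 3), a mean FPKM 3.27-fold lower (log2 change -1.60 ± 0.20 SE, limma adjusted p = 0.0182). Psmb8 had 68.4 and 65.6 FPKM in the knockouts, against 133, 205 and 171 FPKM in controls, again with no overlap. Its mean was 2.53-fold lower (log2 change -1.31 ± 0.19 SE, limma adjusted p = 0.0243). Psmb10, by contrast, had 65.1 and 62.5 FPKM in the knockouts, inside the controls at 47.1, 68.0 and 63.8 FPKM, and its log2 change was 0.11 with a 95% interval of -0.33 to 0.55. Control replicate 1 was the lowest control for all 3 genes, so for Psmb8 and Psmb9 it stood nearest to the knockouts and the gap was still present against it.

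Set against the constitutive subunit that each one replaces, Psmb9 and Psmb8 were lower by a larger fold than alone. The ratio of Psmb9 to Psmb6 was 0.0409 and 0.0361 in the knockouts, against 0.161, 0.163 and 0.117 in controls, which is 3.82-fold lower. The ratio of Psmb8 to Psmb5 was 0.522 and 0.534 in the knockouts, against 1.71, 1.81 and 1.64 in controls, 3.26-fold lower. In both ratios the groups did not overlap, and control replicate 1 lay between the other controls. The ratio of Psmb10 to Psmb7 was 0.319 and 0.3 in the knockouts, against 0.332, 0.332 and 0.305 in controls, and the groups overlapped. Within the immunoproteasome, the ratio of Psmb9 to Psmb10 was 0.176 and 0.166 in knockouts, against 0.613, 0.663 and 0.519 in controls. That of Psmb8 to Psmb10 was 1.05 in each knockout, against 2.83, 3.02 and 2.68 in controls. With Psmb10 little changed, these ratios to Psmb10 restate the falls of Psmb9 and Psmb8. Two-sided exact permutation tests over the 10 splits gave p = 0.1, the smallest possible, for the 4 ratios with Psmb9 or Psmb8 on top and p = 0.3 for Psmb10 over Psmb7, or adjusted p = 0.125 and 0.3 over the 5 ratios. The ratios were chosen after values were seen, so these tests add no independent support. Psmb5, Psmb6 and Psmb7 were not called, with log2 changes of 0.38, 0.23 and 0.18, and these changes enter the ratios. Psmb5 had 131 and 123 FPKM in the knockouts, above all controls at 78.1, 113 and 104 FPKM.

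**Figure D3:**
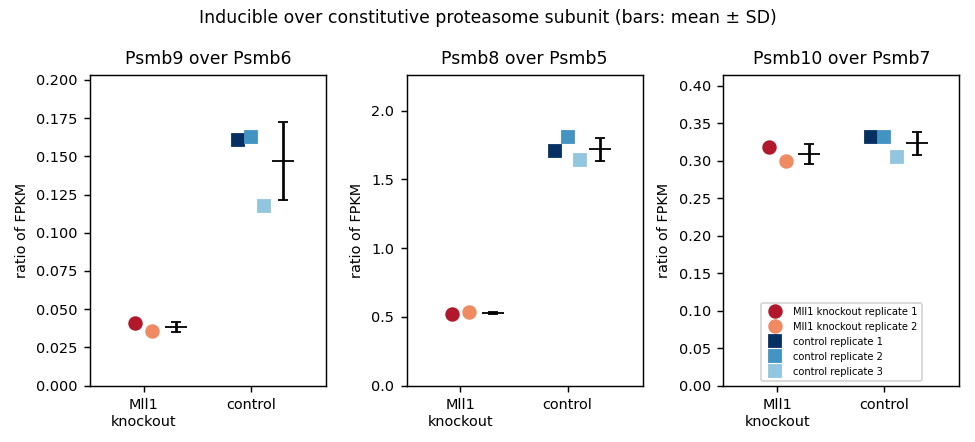
Ratio of the FPKM of each inducible proteasome subunit to the constitutive subunit it replaces, with 1 point per library (circles for Mll1 knockout, squares for control) and black bars for the mean ± SD; axes start at 0. The knockouts lie far below the controls for Psmb9 over Psmb6 (mean 0.0385 against 0.147) and Psmb8 over Psmb5 (mean 0.528 against 1.72), while for Psmb10 over Psmb7 the groups overlap (mean 0.309 against 0.323).

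Psmb9 and Psmb8 lie close together among the antigen-processing genes of the MHC region, and several genes around them were lower too. In the GENCODE M21 order of protein-coding genes, Tap1 lies between them and Tap2 after Psmb8. These encode the transporter that carries peptides into the endoplasmic reticulum. Tap1 had 12.6 and 11.3 FPKM in the knockouts, against 20.9, 28.4 and 22.8 FPKM in controls (log2 change -0.94, limma adjusted p = 0.0283), and Tap2 had 37.9 and 37.5 FPKM, against 63.2, 74.1 and 62.0 FPKM (log2 change -0.80, limma adjusted p = 0.0192). Of the nearest MHC class II genes, H2-Ob and H2-DMa fell, with log2 changes of -2.22 and -1.70. H2-Ab1 and H2-DMb2 lay below all controls in both knockouts without a call (limma adjusted p = 0.0658 and 0.0733). Their log2 changes were -1.58 and -0.66, and both genes passed the filter through the controls alone. H2-Ob, at 0.9 and 0.834 FPKM in the knockouts, against 8.80, 9.70 and 5.26 FPKM in controls, passed the filter through the controls alone. H2-DMb1 had 4.09 and 4.05 FPKM in knockouts, inside the controls at 3.15, 4.27 and 4.08 FPKM. Psmb10 lies on another chromosome (8, against 17). Exons of Psmb9 overlap Tap1 on the opposite strand in the annotation, and those of Psmb8 overlap Gm20496, so without a stated use of strand in the counting, reads of the partners may enter these values.

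The promoter windows below are shown because they belong to called genes with an entry, to Igtp, the GTPase gene just outside the threshold, and to Isg15 as a classical target with several ISRE matches. They are RefSeq sequences of build GRCm38.p6, 250 bases before to 50 after the start, 5′ to 3′ on the gene's strand; capitals mark matches on either strand. The motifs were the ISRE core (GAAA, any 2 bases, GAAA), GAS (TTC, any 3 bases, GAA) and the ETS-IRF composite element bound by PU.1 with IRF8 or IRF4 (GGAA, any 2 bases, GAAA), and a base can belong to more than 1 motif. The positions are not those of mm9, the build that the submitters' processing notes name. Psmb9 is at chr17:34187281-34187580 (minus strand), Psmb8 at chr17:34197945-34198244 (plus strand), Ifi47 at chr11:49076337-49076636 (plus strand), Igtp at chr11:58199306-58199605 (plus strand) and Isg15 at chr4:156200769-156201068 (minus strand).
Psmb9: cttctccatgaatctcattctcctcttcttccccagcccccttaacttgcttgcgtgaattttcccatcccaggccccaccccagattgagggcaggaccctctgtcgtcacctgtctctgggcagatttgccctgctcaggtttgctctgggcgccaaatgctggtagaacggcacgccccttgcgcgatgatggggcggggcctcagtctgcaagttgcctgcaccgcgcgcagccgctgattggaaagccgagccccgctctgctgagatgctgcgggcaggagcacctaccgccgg
Psmb8: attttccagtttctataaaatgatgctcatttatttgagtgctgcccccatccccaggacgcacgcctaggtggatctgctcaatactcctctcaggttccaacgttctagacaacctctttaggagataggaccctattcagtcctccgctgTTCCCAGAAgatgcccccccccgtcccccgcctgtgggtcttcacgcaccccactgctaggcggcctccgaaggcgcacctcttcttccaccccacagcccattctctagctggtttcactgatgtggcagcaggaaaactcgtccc
Ifi47: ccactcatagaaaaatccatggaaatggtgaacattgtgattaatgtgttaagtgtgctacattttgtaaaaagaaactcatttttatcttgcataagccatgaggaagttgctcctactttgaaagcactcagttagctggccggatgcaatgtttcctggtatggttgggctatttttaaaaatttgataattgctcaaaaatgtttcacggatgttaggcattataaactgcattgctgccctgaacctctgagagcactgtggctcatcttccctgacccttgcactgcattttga
Igtp: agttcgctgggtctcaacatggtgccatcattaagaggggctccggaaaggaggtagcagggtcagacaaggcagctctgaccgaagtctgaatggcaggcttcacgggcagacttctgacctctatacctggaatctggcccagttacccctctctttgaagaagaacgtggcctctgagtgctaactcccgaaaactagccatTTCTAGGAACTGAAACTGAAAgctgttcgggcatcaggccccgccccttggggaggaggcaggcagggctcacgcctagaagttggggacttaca
Isg15: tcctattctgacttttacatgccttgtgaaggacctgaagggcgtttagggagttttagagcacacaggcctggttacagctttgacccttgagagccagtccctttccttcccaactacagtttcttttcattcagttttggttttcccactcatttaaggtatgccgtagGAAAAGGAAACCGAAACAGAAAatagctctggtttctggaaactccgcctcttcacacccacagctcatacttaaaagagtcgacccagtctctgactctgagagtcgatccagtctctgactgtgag

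The Psmb9 window holds no match to these motifs, and 275 of its bases are shared with the Tap1 window on the opposite strand, since the genes are read away from each other. Psmb8 has 1 GAS match, TTCCCAGAA, from 97 to 89 bases before the start, and the Ifi47 window has none. In Igtp the GAS match TTCTAGGAA lies from 45 to 37 bases before the start and the ISRE match GAAACTGAAA from 34 to 25, and the composite match GGAACTGAAA overlaps both. Isg15 has 3 overlapping ISRE matches between 78 and 57 bases before its start. Of the 41 genes, 32 had an entry, with 36 windows, and Parp9 and Parp14 had none. The ISRE core was found in 17 of the 36 windows (47.2%), against 3.44% of 32851 windows of the same length over all genes, GAS in 11 (30.6%), against 8.3%, and the composite in 6 (16.7%), against 2.72%. By call, the ISRE core was in 0 of 3 genes called lower, 11 of 19 tested and not called and 6 of 10 not tested. A match is a string of letters and not a measured binding site.

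Parp14 and Parp9 fell together with their neighbour. PARP14 is a mono-ADP-ribosyltransferase that acts in interferon and IL-4 signalling, and PARP9 works in a complex with the ubiquitin ligase DTX3L. Parp14 had 0.85 and 0.73 FPKM in the knockouts, against 1.89, 1.88 and 1.94 FPKM in controls, 2.41-fold lower (log2 change -0.70 ± 0.12 SE, limma adjusted p = 0.034). It passed the filter on low values through the controls alone. Parp9 had 6.48 and 6.11 FPKM in the knockouts, against 9.55, 8.72 and 9.15 FPKM in controls, 1.45-fold lower (log2 change -0.48 ± 0.086 SE, limma adjusted p = 0.0376). The groups overlapped in neither gene, and control replicate 1 lay within 0.088 of the other controls on the log2 scale for each. Dtx3l, which lies between them, had 6.41 and 6.72 FPKM in the knockouts, against 9.28, 9.28 and 8.80 FPKM in controls (log2 change -0.42, limma adjusted p = 0.0423). Outward of this group, Hspbap1 and Kpna1 were not called, at log2 changes of -0.17 and 0.20. Exons of Parp9 overlap Dtx3l on the opposite strand, so the pair is not fully separate in the counts. With median-ratio or quantile scaling Parp9 was no longer called, at log2 changes of -0.43 and -0.37 (limma adjusted p = 0.0524 and 0.0661, within 0.0203 to 0.332 over all alternatives).

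**Figure D4:**
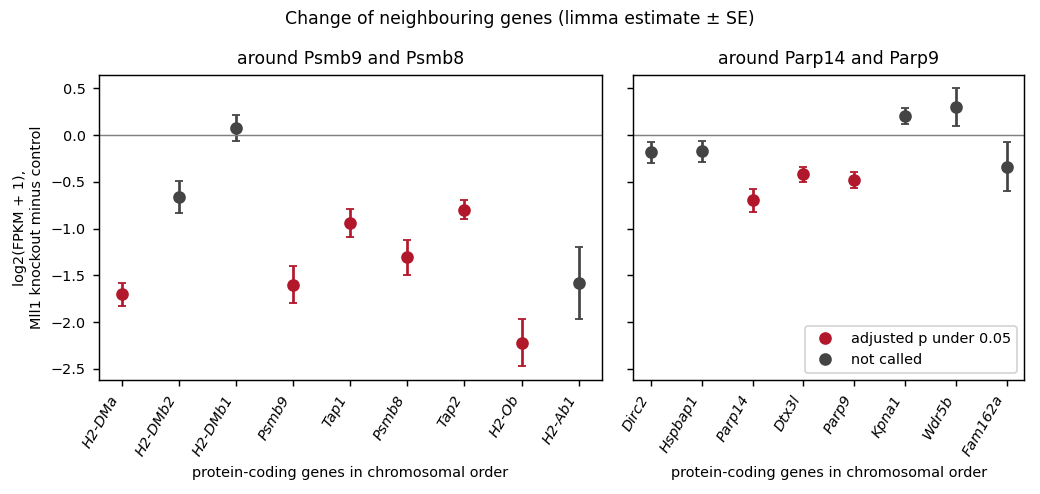
Change of protein-coding genes in chromosomal order around Psmb9 and Psmb8 (left) and around Parp14 and Parp9 (right), as log2(FPKM + 1) in Mll1 knockout minus control, with points for the limma estimate and bars for its SE; distances are not to scale. In each stretch the called genes lie side by side, Psmb9, Tap1, Psmb8, Tap2 and H2-Ob on the left and Parp14, Dtx3l and Parp9 on the right, with H2-DMa called farther left.

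Over the 3 protein-coding neighbours on each side of the 5 called genes, 13 of 20 neighbours outside the list were tested. Of these, 5 fell and 0 rose, beside 5.97% and 3.82% of all genes kept. These windows were laid after the calls were known, and the 5 were Tap1, Tap2, H2-Ob, H2-DMa and Dtx3l. H2-Ob passed the filter through the controls alone, and Tap1 and Tap2 count again in the further list below. Around Ifi47 none of the 6 neighbours was expressed at a level that could be tested.

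Ifi47 was the called gene among the interferon-induced GTPases, proteins that attack the vacuoles of intracellular pathogens. Ifi47 had 7.86 and 7.25 FPKM in the knockouts, against 11.6, 12.9 and 11.7 FPKM in controls, 1.60-fold lower with no overlap (log2 change -0.61 ± 0.091 SE, limma adjusted p = 0.0252). Igtp, which encodes IRGM3, had 1.96 and 1.88 FPKM in the knockouts, against 2.91, 3.85 and 3.36 FPKM in controls. Its groups did not overlap either, and its adjusted p of 0.0597 in limma missed the threshold at a log2 change of -0.58. Irgm1 had 11.8 and 11.0 FPKM in the knockouts, above control replicates 2 and 3 at 8.77 and 8.30 FPKM but level with control replicate 1 at 11.7 FPKM. Its log2 change was 0.24 (limma adjusted p = 0.364), and 0.38 without control replicate 1 (adjusted p = 0.0272, against a range of 0.0272 to 0.736 over all alternatives). The guanylate-binding protein genes Gbp2 and Gbp3 stayed under 1 FPKM in every library. Ifi47 overlaps Olfr56 and Gm12188 and Igtp overlaps Irgm2 in the annotation, and GTPase genes of this family resemble each other, so their separate values are uncertain.

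The IFITM genes, which encode small membrane proteins that block virus entry, had no call, and Ifitm1, Ifitm2 and Ifitm3 were the most abundant of the list. Ifitm3 had 234 and 207 FPKM in the knockouts, against 161, 185 and 177 FPKM in controls, a log2 change of 0.34 with no overlap between groups (limma adjusted p = 0.103). Ifitm6 had 2.04 and 1.66 FPKM in the knockouts, against 1.04, 0.543 and 0.445 FPKM in controls, a log2 change of 0.78 (limma adjusted p = 0.0762) that was 0.93 without control replicate 1 (adjusted p = 0.014, against 0.014 to 0.431 over all alternatives). It passed the filter on low values through both knockouts and control replicate 1. Ifitm1 had 568 and 608 FPKM in the knockouts, inside the controls at 355, 614 and 540 FPKM. Ifitm2 had 373 and 379 FPKM, also inside the controls at 306, 391 and 387 FPKM. For Ifitm1 and Ifitm2 control replicate 1 was the lowest of all 5 libraries. The 4 genes resemble each other in sequence, which makes their separate levels uncertain.

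Sensors of foreign nucleic acid did not move as 1 group. Ddx58, which encodes the RNA sensor RIG-I, had 3.53 and 3.65 FPKM in the knockouts, against 4.80, 5.45 and 5.10 FPKM in controls. The groups did not overlap, at a log2 change of -0.41 (limma adjusted p = 0.0634). Ifih1, which encodes the RNA sensor MDA5, had 1.71 and 1.87 FPKM in the knockouts, inside the controls at 2.03, 1.4 and 1.36 FPKM. Dhx58, which encodes LGP2, a regulator of both sensors, had 4.57 and 4.70 FPKM, inside the controls at 3.27, 5.32 and 3.74 FPKM. Zbp1, a sensor of Z-form nucleic acid, had 1.18 and 0.89 FPKM in the knockouts, against 0.872, 0.718 and 0.392 FPKM in controls, and was below the filter.

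Among the direct antiviral effectors, Samhd1 and Rsad2 lay lower in both knockouts without a call. Samhd1, a dNTP hydrolase that restricts retroviruses, had 28.4 and 29.9 FPKM in the knockouts, against 30.9, 32.6 and 35.2 FPKM in controls (log2 change -0.17, limma adjusted p = 0.257). Rsad2, which encodes viperin, had 0.84 and 0.855 FPKM in the knockouts, against 2.04, 1.29 and 0.916 FPKM in controls (log2 change -0.36, limma adjusted p = 0.35), and its spread among controls was wider than the gap to control replicate 3. It passed the filter through the controls. Bst2, which encodes tetherin, had 85.0 and 79.3 FPKM, inside the controls at 78.4, 101 and 84.9 FPKM. The kinase gene Eif2ak2 (PKR) and the RNA-editing enzyme gene Adar had log2 changes of -0.056 and -0.022, with 95% intervals of -0.37 to 0.26 and -0.25 to 0.21. The dynamin-like GTPase genes Mx1 and Mx2 were at most 0.202 and 0.171 FPKM, each highest in control replicate 1, and C57BL/6 mice are known to carry defective Mx1 and Mx2 alleles.

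The genes that mark a strong type I interferon response were at the bottom of the range. The OAS genes encode sensors that make the activator of the nuclease RNase L, and their relatives Oasl1 and Oasl2 encode proteins without that activity or with other roles. None of the 5 was tested. Oas1a had 1.21 and 0.754 FPKM in the knockouts, against 0.213, 0.509 and 0.521 FPKM in controls, with no overlap, and it has close copies in the mouse genome. Oasl1 had 0.336 FPKM in each knockout, against 0.096, 0.327 and 0.181 FPKM in controls. Oas2, Oas3 and Oasl2 stayed at or below 0.386 FPKM and their groups overlapped. Of the IFIT genes, whose proteins bind foreign RNA, Ifit2 was tested, with 2.20 and 2.26 FPKM in the knockouts inside the controls at 3.31, 2.19 and 1.98 FPKM. Ifit1 had 0.31 and 0.331 FPKM in the knockouts, against 0.264, 0.168 and 0.193 FPKM in controls, and Ifit3 at most 0.164 FPKM, being listed at 0 in control replicate 2.

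Isg15, a ubiquitin-like modifier, had 1.5 and 0.987 FPKM in the knockouts, against 1.43, 1.58 and 1.29 FPKM in controls. Its groups overlapped, at a log2 change of -0.12 with a 95% interval of -0.53 to 0.28. Usp18, which removes ISG15 from proteins and damps receptor signalling, stayed at or below 0.41 FPKM in every library. Trim25, a ubiquitin ligase that activates RIG-I, had 22.0 and 21.1 FPKM in the knockouts, against 20.2, 18.2 and 20.2 FPKM in controls, higher in both knockouts by a log2 change of 0.13 (limma adjusted p = 0.33). Stat2 had 4.74 and 4.32 FPKM in the knockouts, inside the controls at 6.09, 4.55 and 4.21 FPKM. Ifi35, a scaffold-like protein of the response, had a log2 change of -0.0082, and Rtp4, Xaf1 and Ifi44 were not tested, at levels up to 1.15, 0.898 and 0.028 FPKM with overlapping groups.

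Upstream of these genes, single receptor and regulatory factor genes changed. Ifngr1, the ligand-binding chain of the interferon-gamma receptor, rose to 110 and 114 FPKM in the knockouts, against 64.6, 47.5 and 46.8 FPKM in controls (log2 change 1.09, limma adjusted p = 0.0251). Il10rb, the chain shared by the interferon-lambda and IL-10 receptors, fell to 14.8 and 14.2 FPKM, against 38.7, 34.5 and 28.7 FPKM in controls (log2 change -1.16, limma adjusted p = 0.017). These were the called genes among 10 receptor, JAK and STAT genes, all tested, beside 3.82% called higher and 5.97% lower of all genes kept. Ifnar1 and Ifnar2, the type I receptor chains, had log2 changes of -0.32 and -0.25 (limma adjusted p = 0.0781 and 0.188), and Ifngr2 of 0.23 (adjusted p = 0.25). Jak1, Jak2 and Tyk2 were not called, with log2 changes of 0.011, 0.049 and -0.14.

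Of 6 interferon regulatory factor genes, Irf8 and Irf2 fell, beside 5.97% of all genes kept. Irf8, a factor of monocytes and dendritic cells that acts on several genes of antigen processing, had 0.778 and 0.826 FPKM in the knockouts, against 4.82, 5.67 and 4.58 FPKM in controls (log2 change -1.74, limma adjusted p = 0.00765), and passed the filter on low values through the controls alone. Irf2, an antagonist of IRF1 at many promoters, had 7.23 and 7.58 FPKM, against 16.3, 13.6 and 13.8 FPKM in controls (log2 change -0.88, limma adjusted p = 0.0172). Irf9 had 4.38 and 3.79 FPKM in the knockouts, against 5.74, 5.45 and 5.04 FPKM in controls (limma adjusted p = 0.115), and Irf7, itself strongly induced by type I interferon, had 1.83 and 1.02 FPKM, inside the controls at 2.41, 1.48 and 0.994 FPKM.

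**Figure D5:**
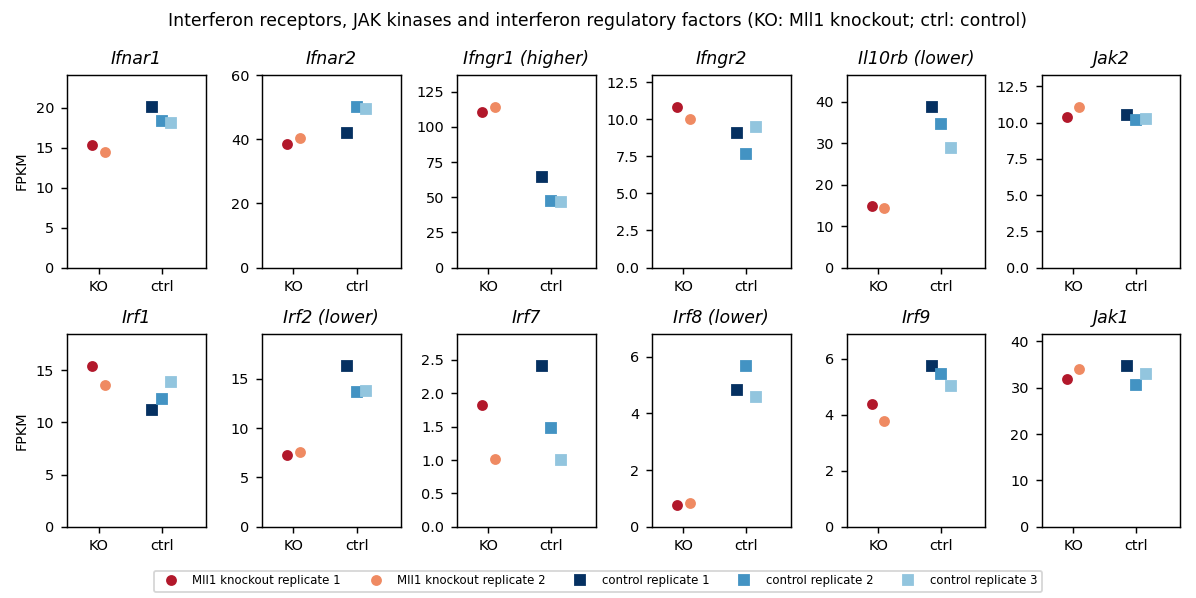
FPKM of interferon receptor, JAK kinase and regulatory factor genes in each library, with circles for the 2 Mll1 knockouts and squares for the 3 controls and each axis starting at 0; titles name the direction of called genes. Ifngr1 stands above all controls, Il10rb, Irf2 and Irf8 stand below them, and Irf7 and Jak1 overlap.

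Of 8 tested genes that induce interferon, Unc93b1, a chaperone of nucleic-acid-sensing Toll-like receptors, rose to 28.0 and 27.4 FPKM in the knockouts, against 15.4, 15.6 and 13.5 FPKM in controls (log2 change 0.86, limma adjusted p = 0.0148). Ikbke, a kinase that activates IRF3, rose to 16.5 and 16.3 FPKM, against 10.6, 10.6 and 9.69 FPKM in controls (log2 change 0.62, limma adjusted p = 0.0191). None of these genes fell, and of all genes kept 3.82% rose and 5.97% fell. Of 5 tested feedback genes none was called in limma, Socs3 having 2.98 and 2.73 FPKM in the knockouts, against 6.22, 3.76 and 4.73 FPKM in controls (adjusted p = 0.119).

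A further list held 60 interferon-induced genes outside the 41, of which 47 matched by gene name and 30 were tested. Of the 30, 5 fell and 1 rose, beside 5.97% and 3.82% of all genes kept. Their median log2 change was -0.27, against -0.028 over all genes kept. Besides Tap1 and Tap2, already counted among the neighbours, Epsti1 fell to 1.51 FPKM in each knockout, against 6.61, 6.44 and 4.76 FPKM in controls (log2 change -1.45, limma adjusted p = 0.0149). Nmi, a partner of STAT proteins and IFI35, had 10.2 and 10.9 FPKM in the knockouts, against 16.6, 15 and 17.2 FPKM in controls (log2 change -0.58, limma adjusted p = 0.0294), and Sp110, a nuclear body protein gene, had 16.1 and 15.4 FPKM, against 22.3, 24.9 and 21.2 FPKM (log2 change -0.50, limma adjusted p = 0.0403). The gene that rose was Plac8, a gene also abundant in myeloid cells, with 2322 and 2330 FPKM in the knockouts, against 1324, 1266 and 1239 FPKM in controls (log2 change 0.87, limma adjusted p = 0.0203). Both knockout values lay below all controls in 16 of the 30 and above them in 4, beside the 29.4% and 22.9% of all genes given above. Cmpk2 and Ube2l6, among the 16, and Ifi27l2a, whose groups overlapped, passed the filter through the controls alone and also enter the median.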

How the data were processed

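RNA-seq values of 5 libraries were used. The deposited FPKM were made by the authors with CASAVA 1.8.2, GSNAP, SAMtools and Cuffdiff on mouse build mm9, per the submitters' processing notes. The gene annotation, the use of strand and the handling of reads with several positions are not stated in any label or file header. In 16 of 31626 genes a library held 999999999, which is no FPKM, and these genes were left out; none is among the 41.

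Values entered limma (3.58.1, under R 4.3.3) as log2(FPKM + 1), with the variance trend on, for genes that reached 1 FPKM in 2 or more libraries. P-values were adjusted by Benjamini-Hochberg over all 11780 genes kept. Log2 changes are knockout minus control, are understated for low genes, and intervals are 95% intervals of limma. Single values were tested by exact permutation. The limma step was tested on simulated data with normal noise drawn separately for each gene and library. Shifts that many genes of a library share were not simulated. Members and lists were chosen with earlier results of these data known. All 41 genes are accounted for, with each library's values for those called or not overlapping, and, from the other lists, every called gene and the main receptor, kinase, STAT and IRF genes are named. Neighbour windows, ratios, some other genes with values in each library and printed sequences were chosen after values were seen. GENCODE M21 (40 of 41 matched by ID, Psmb9 by symbol) gave gene order and overlaps. Alternatives covered pseudocount, filter, scaling, trend, threshold, replicate block and each library left out. A gene of the signalling list, outside the 41, is not reported here.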

Additional observations from a re-analysis of the deposited data

How the results depend on the processing

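The median change of the tested interferon-induced genes was near 0 under every setting and took other values with other settings, against -0.092 as tested: -0.0216 with no filter and also with a mean of at least 5 FPKM, and 0.0228 after quantile normalization. Leaving out 1 library each gave medians from -0.118 to -0.0206. With no filter 1 interferon-induced gene was called (Psmb9), and 238 genes in all rose and 259 fell. At an adjusted p under 0.1, 1 of the 25 rose and 7 fell, with 1021 and 1414 over all genes. Leaving out each library in turn gave 0 to 7 interferon-induced genes lower and 0 to 2 higher, and 0 to 2178 lower and 0 to 1434 higher over all genes; the largest counts came without control replicate 1 and the counts of 0 over all genes without knockout replicate 2 in limma, where 1595 genes had an unadjusted p under 0.05. The share of all calls that rose was 39% as tested and 49.5% after median-ratio scaling (592 rose, 604 fell). With the replicate number as a block no interferon-induced gene was called by limma (7 at an unadjusted p under 0.05), and 12 genes rose and 43 fell. The numbers pair no samples beyond the label: deviations of same-numbered libraries correlated at 0.037 and 0.012. Psmb9 kept its sign under all 13 alternatives, with log2 changes from -1.74 to -1.34, and Psmb8 from -1.47 to -1.16. No called gene changed sign, while 9 of the 20 genes not called did under at least 1 alternative. Absolute depth is unknown, which limits what can be said of genes under 1 FPKM.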
